A study of Mus musculus with 7 samples.

Results

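A small set of mouse medullary thymic epithelial cells (mTECs) that carried transcripts of the upper epidermis was examined in 7 droplet-based single-cell RNA-sequencing (scRNA-seq) libraries. Cells were taken as keratinocyte-like post-Aire mTECs when they had no UMI of *Ptprc* (CD45), a deposited *Krt10* value above 1.5, *Aire* at or below 1.5, *Ccl21a* at or below 4, and at least 1 UMI of *Spink5*, *Calm4* or *Rptn*. A UMI is a tag that counts a single captured RNA molecule, and the deposited values are natural logs of 1 plus the UMIs per 10000 of the cell. This gate held 85 of 8453 cells, or 85 of the 8220 cells without a *Ptprc* UMI (1.03%, 95% exact binomial interval 0.827 to 1.28%). Intervals on shares cover counting error only. The gated cells were described against 1769 *Aire*-high cells (*Aire* above 1.5) and against the 6366 other cells without a *Ptprc* UMI.

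Each library held sorted EpCAM+ CD45- cells from 3 pooled thymi of female mice, so that a library is 1 sample. The Aire trace came from 6-week-old Aire-CreERT2-R26-CAG-Stopfl-zsGreen mice on C57BL/6, which received tamoxifen (2 mg on alternate days over 10 days) and in which Cre under control of the *Aire* locus switches on ZsGreen. The other libraries came from C57BL/6 mice that were injected 3 times with isotype antibody or anti-RANKL (100 µg), of which the latter blocks a signal that mTECs need to mature, and were collected 2 or 10 weeks after isotype and 2, 4, 6 or 10 weeks after anti-RANKL. The mice were then 4 (week 2), 6 (week 4), 8 (week 6) or 12 (week 10) weeks of age, so that time after treatment and age cannot be told apart. Libraries held 3857876 to 22197691 UMIs, with a median of 4299.5 to 16809 UMIs per cell. Anti-RANKL weeks 4 and 6 were the shallowest libraries, and 50 cell barcodes occurred in more than 1 library, none of them in a gated cell.

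Medullary thymic epithelial cells display antigens of other organs to developing T cells, a process that the transcription factor *Aire* promotes. Some mTECs lose *Aire* and go on to keratinize, and in the thymic medulla such cells form swirls known as Hassall's corpuscles. In the skin, keratinocytes leave the basal layer, switch to the keratins *Krt1* and *Krt10* in the spinous layer, and later build a protein and lipid barrier called the cornified envelope.

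The label was first checked against genes that the gate did not use, after thinning each cell at random to 2000 UMIs. A gated cell had a median of 8 of 22 spinous-layer genes detected (0 to 14), against 1 in *Aire*-high and 2 in other cells. At least 4 of these genes were present in 76 of 85 gated cells (89.4%, interval 80.8 to 95%), in 47 of 1763 *Aire*-high cells (2.67%) and in 602 of 6200 other cells (9.71%). The cutoff of 4 was chosen after the values had been seen, and the gate genes and this list are parts of one programme, so these shares are a description with no test. The list of 42 cornified envelope genes was sparser, with at least 4 genes in 15 gated cells (17.6%, 10.2 to 27.4%), 2.10% of *Aire*-high cells and 0.629% of other cells, and with none in 17 gated cells.

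**Figure D1:**
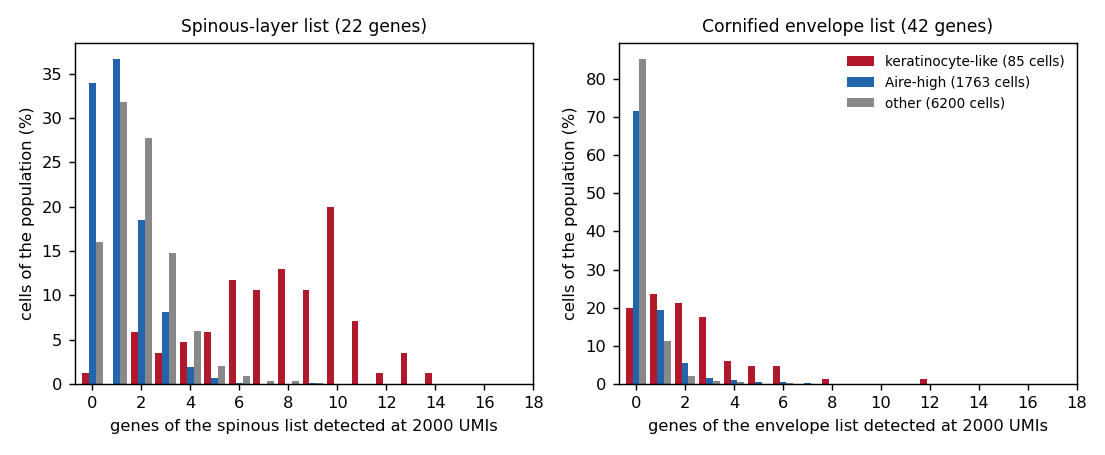
Distribution of the number of spinous-layer genes (left, 22 genes) and cornified envelope genes (right, 42 genes) detected per cell at 2000 UMIs (x axis), as a percentage of the cells of each population (y axis). Keratinocyte-like cells (red) peak at 10 spinous genes, while *Aire*-high (blue) and other cells (grey) mostly hold 0 to 3, and envelope genes are few in all 3 populations.

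The label went against some gated cells, most of them near the *Krt10* cutoff. In the isotype week 2 library, a gated cell with a *Krt10* value of 1.58 had 2 spinous genes and all 5 genes of the microfold list. The lowest cell of anti-RANKL week 4 (*Krt10* 1.51, 3 spinous genes) held 6 of 8 cortical epithelial genes, and the lowest of anti-RANKL week 10 (*Krt10* 1.53) held no spinous gene and 6 tuft genes. Of the 9 cells with fewer than 4 spinous genes 3 had *Krt10* above 2, at 2.07, 3.13 and 3.36, each with 2 spinous genes and 7 to 11 genes of the *Aire*-stage list, so that a stricter *Krt10* cutoff leaves them in. The only gated cell of anti-RANKL week 6 had 2527 UMIs and a *Krt10* value of 1.60 from a single UMI, with 4 spinous genes, no envelope gene, 2 T cell genes and 2 cortical epithelial genes at 2000 UMIs. It had UMIs of *Krtdap*, *Dsp*, *Jup*, *Perp* and *Ly6d* and none of the rest of the spinous list, and stood at 4353 CPM (UMIs scaled to a total of 1000000) for *Ctsl*, 2374 for *Igfbp4* and 1583 for *Mgp*. Genes and genes per cell were tested in the 4 libraries with at least 10 gated cells, shares in all 7, and restricting the gate to *Krt10* above 2 or to cells with at least 2 of the 3 markers is given as an alternative after the report.

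The 3 marker genes of the gate were found in different numbers of cells. *Spink5*, which encodes an inhibitor of skin proteases and lies on chromosome 18 from 43963235 to 44022501 (mm10, plus strand), was detected in 72 of 85 cells. *Calm4*, a calmodulin-like gene of keratinocytes on chromosome 13 from 3837757 to 3838673 (plus strand), was detected in 60 cells. *Rptn*, which encodes the envelope protein repetin and lies in the epidermal differentiation complex on chromosome 3 from 93393699 to 93399442 (plus strand), was detected in 44. These shares follow from the rule, which needs only 1 of the 3, and for comparison 6.44%, 5.37% and 5.88% of *Aire*-high cells had a UMI of *Spink5*, *Calm4* and *Rptn*. All 3 markers were present in 22 cells, 2 in 47 and 1 in 16.

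The number of markers went along with other keratinocyte genes. Cells with 1, 2 and 3 markers had medians of 4, 8 and 10 spinous genes and of 0, 2 and 3 envelope genes. *Flg* was detected in 0%, 44.7% and 54.5% of them and *Krtdap* in 43.8%, 80.9% and 90.9%, whereas *Krt1* (43.8%, 48.9% and 50%) and the basal keratin *Krt5* (62.5%, 63.8% and 54.5%) varied less. The median depth was 6292, 10609 and 9266.5 UMIs, lowest in the cells with 1 marker, and the part of depth in these shares was not tested.

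*Krt10*, the type I keratin of the spinous layer, had a median value of 3.41 in the gated cells (1.51 to 5.55), or a median of 26 UMIs and a maximum of 516, and 1 cell passed with a single UMI. The lowest values inside the cutoff were 1.51, 1.53 and 1.55, and the highest outside it among cells that met all other conditions were 1.49, 1.45 and 1.44. A total of 526 cells failed on *Krt10* alone, 64 on the markers alone, 5 on *Ccl21a*, 4 on *Aire* and 1 on *Ptprc*. *Aire* itself had at least 1 UMI in 19 of 85 gated cells, a single UMI in 13 of them, and its highest gated value was 1.13. Of the cells marked as T cells (a *Ptprc* UMI and at least 3 T cell genes), 29 of 68 also had an *Aire* UMI (42.6%). Their median depth was 9298.5 UMIs, against 9350 in gated cells.

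Cells passed the gate in all 7 libraries, at shares of 0.138 to 2.21%, but in anti-RANKL week 6 this was the 1 cell described above, and 0 of 719 passed with *Krt10* above 2 or with at least 2 markers. They made up 25 of 1129 cells in isotype week 2 (2.21%, 1.44 to 3.25%) and 6 of 1247 in isotype week 10 (0.481%, 0.177 to 1.04%). After anti-RANKL they made up 13 of 1184 cells at week 2 (1.10%, 0.586 to 1.87%), 2 of 1451 at week 4 (0.138%, 0.0167 to 0.497%), 1 of 719 at week 6 (0.139%, 0.00352 to 0.772%) and 25 of 1172 at week 10 (2.13%, 1.39 to 3.13%). In the Aire trace they were 13 of 1318 (0.986%, 0.526 to 1.68%). Isotype week 2 and anti-RANKL week 10 were highest with overlapping intervals, and anti-RANKL weeks 4 and 6 lowest. The intervals of the Aire trace and anti-RANKL week 2 overlapped both of the highest ones. The interval of week 4 overlapped those of week 6 and isotype week 10, and that of week 6 also those of the Aire trace and anti-RANKL week 2. The 2 isotype libraries did not have overlapping intervals. The order depends on the denominator: among cells with *Ccl21a* at or below 4 the shares were 2.93% in the Aire trace, 2.70% in anti-RANKL week 10, 2.60% in anti-RANKL week 2 and 2.58% in isotype week 2, whose intervals overlap, and 0.577% or less in the other libraries.

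**Figure D2:**
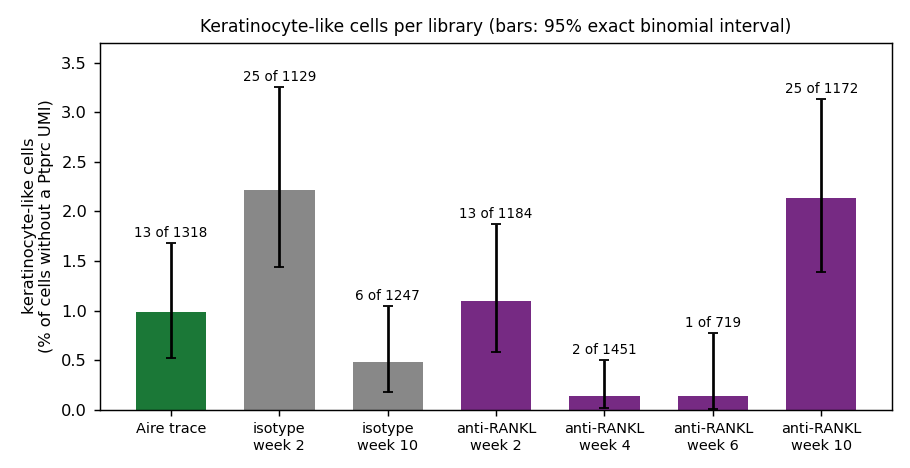
Keratinocyte-like cells as a percentage of the cells without a *Ptprc* UMI (y axis) in each of 7 libraries (x axis); error bars are 95% exact binomial intervals and the counts stand above the bars. Isotype week 2 and anti-RANKL week 10 reach 2.21% and 2.13%, and anti-RANKL weeks 4 and 6 stand at 0.138% and 0.139%.

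The share averaged 0.877 ± 0.952% (SD, n = 4) over the anti-RANKL libraries and 1.35 ± 1.23% (SD, n = 2) over the isotype libraries, a difference of -0.471 percentage points with p = 0.6 in a two-sided exact permutation test, which cannot go below 0.0667 in this design. Against the 3 libraries without anti-RANKL (1.23 ± 0.891%) the difference was -0.350 with an exact permutation p of 0.571, where the smallest possible is 0.0286. A difference between treatments was not detectable with these libraries. The anti-RANKL libraries are 4 time points and not repeats of 1 condition.

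The ratio of keratinocyte-like to *Aire*-high cells followed another order. There were 5.48 gated cells per 100 *Aire*-high cells in isotype week 2 and 5.52 in anti-RANKL week 10, but 21.0 in anti-RANKL week 2, 11 in the Aire trace and 9.09 in anti-RANKL week 4. Anti-RANKL week 2 thus had the highest ratio, at 13 gated against 62 *Aire*-high cells. The ratio was lowest in anti-RANKL week 6 (0.917) and isotype week 10 (1.09), at 1 and 6 gated cells.

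ZsGreen, which marks cells that had *Aire* during tamoxifen and their progeny, was detected in 12 of the 13 gated cells of the Aire trace (92.3%, 64.0 to 99.8%, median depth 10189 UMIs). Of these, 3 also had an *Aire* UMI and 9 had ZsGreen alone. The share was 89.8% in *Aire*-high cells (106 of 118, 82.9 to 94.6%, median 15179.5 UMIs) and 43.5% in other cells (516 of 1187, 40.6 to 46.3%, median 8692 UMIs). The ZsGreen sequence was in the reference of this library alone, so the other libraries give no background for it. Within the Aire trace 12 of 18 cells marked as T cells also had one (66.7%, 41.0 to 86.7%, median 12338 UMIs), which overlaps the interval of the gated cells. After thinning to 2000 UMIs the shares were 76.9% in gated cells, 51.7% in *Aire*-high cells, 17.9% in other cells and 44.4% in cells marked as T cells. The ZsGreen level was 824 CPM in gated cells, 471 in *Aire*-high, 154 in other and 286 in cells marked as T cells, and was not tested, since 1 library holds it.

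To compare genes, UMIs were summed over the cells of each population in each library and scaled to CPM, and log2 of this level plus 10 was tested with limma, keeping the library as a block. A gene was called when the Benjamini-Hochberg adjusted p over all genes was under 0.05 and the difference at least 2-fold. The 7 genes of the gate were left out of the tests. Gated cells had been chosen by expression, so that genes which accompany the gate genes within cells must differ to some extent, and the p-values measure only how steady a difference was over 4 libraries. Values per library below are in CPM, always in the order Aire trace, isotype week 2, anti-RANKL week 2 and anti-RANKL week 10.

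Against *Aire*-high cells, 8592 genes were tested, and 1060 were called higher (12.3%) and 981 lower (11.4%) in gated cells. Of the called genes 51.9% were higher, and 40.0% when sums were scaled by the median ratio, a scaling that moved the median of all genes from 0.01 to -0.17 on the log2 scale. Against other cells, 713 of 8715 genes were called higher (8.18%) and 767 lower (8.80%). Both comparisons share the gated cells, and 619 higher genes were in both lists (58.4% of the first and 86.8% of the second), as were 358 lower genes (36.5% and 46.7%).

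Spinous-layer genes were higher in gated cells. Of the 22 members 19 passed the filter on low values, and 17 of these were called higher and none lower than in *Aire*-high cells, beside 12.3% of all genes called higher. Their median log2 difference was 3.20, against 0.01 for all genes tested. Against other cells 16 of 19 were called higher, beside 8.18% of all genes, with a median of 2.35 (all genes -0.10). Members pass the filter more easily where gated cells are high, so these counts do not speak for the 3 members left out. In the lists below, members likewise pass more easily where either population is high.

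*Krtdap*, a small secreted protein of differentiating keratinocytes, stood at 6551, 11018, 4174 and 8773 CPM in gated cells and at 172, 70.6, 47.8 and 52.5 in *Aire*-high cells. All gated values lay above all *Aire*-high values, with a log2 difference of 6.39 ± 0.31 (SE, adjusted p = 6.96e-06). *Dmkn*, which encodes the secreted protein dermokine, stood at 2173, 2956, 2305 and 2980.1 in gated and 103, 39.5, 84.7 and 63.1 in *Aire*-high cells, a log2 difference of 5.03 ± 0.26 (SE, adjusted p = 8.57e-06), and was found in 89.4% of gated cells. *Sbsn*, which encodes suprabasin, stood at 637, 2336, 970.1 and 2204 against 27.6, 50.8, 29.3 and 40.3, a log2 difference of 4.87 ± 0.24 (SE, adjusted p = 7.11e-06). For none of the 3 genes did the groups overlap.

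*Sbsn*, *Dmkn* and *Krtdap* lie side by side on the plus strand of chromosome 7 within 0.0396 Mb (30751471 to 30791097, mm10). In both comparisons 3 of 3 were called higher, beside 12.3% and 8.18% of all genes. The 3 were picked from the spinous-layer list, so this count adds no result to that of the list. Their promoters are shown because the genes are neighbours. They are RefSeq sequences of build GRCm38.p6, from 250 bases before to 50 bases after the annotated start, at chr7:30751221-30751520, chr7:30763506-30763805 (the first of 3 *Dmkn* starts) and chr7:30787655-30787954, with matches to TGANTCA, the motif of AP-1 factors, in capitals.
Sbsn: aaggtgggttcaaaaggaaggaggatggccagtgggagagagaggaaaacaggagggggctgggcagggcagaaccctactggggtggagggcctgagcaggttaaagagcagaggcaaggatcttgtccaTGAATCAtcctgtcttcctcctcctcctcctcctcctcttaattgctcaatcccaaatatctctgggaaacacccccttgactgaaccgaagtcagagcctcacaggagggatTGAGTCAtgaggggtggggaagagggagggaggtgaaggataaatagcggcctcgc
Dmkn: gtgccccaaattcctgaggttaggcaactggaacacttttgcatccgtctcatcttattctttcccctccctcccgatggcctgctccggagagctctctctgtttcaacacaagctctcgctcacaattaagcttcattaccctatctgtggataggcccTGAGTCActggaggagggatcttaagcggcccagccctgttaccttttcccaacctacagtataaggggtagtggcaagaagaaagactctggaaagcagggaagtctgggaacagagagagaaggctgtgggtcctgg
Krtdap: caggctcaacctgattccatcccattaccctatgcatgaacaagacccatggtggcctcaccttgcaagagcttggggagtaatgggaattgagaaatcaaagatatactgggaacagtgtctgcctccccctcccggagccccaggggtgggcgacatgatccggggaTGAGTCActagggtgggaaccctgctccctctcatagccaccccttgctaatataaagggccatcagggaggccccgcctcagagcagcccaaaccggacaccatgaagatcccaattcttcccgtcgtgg
*Sbsn* had 2 matches, at -119 and -6 from the start, *Dmkn* 1 at -89 and *Krtdap* 1 at -81, on either strand of a motif that reads the same on both. TGANTCA occurred in 7.81% of all 32851 promoters of this length, in 5.74% of those of the tested genes and in 8.91% of those of the genes called higher than in *Aire*-high cells. TATAAA, searched on both strands and present in 13.6% of all promoters, occurred once in *Krtdap* and in neither of the others, and the grainyhead motif AACCGGTT, present in 0.146%, in none of the 3. A match is a run of letters and was not tested for binding.

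*Krt1*, the type II keratin that pairs with *Krt10* and lies on chromosome 15 from 101845426 to 101850794, stood at 349.7, 1303, 258 and 432 in gated and 5.72, 4.44, 0.838 and 13.5 in *Aire*-high cells. It differed by 4.97 ± 0.35 (SE, adjusted p = 3.44e-05) but was detected in only 41 of 85 gated cells (48.2%) and in none of the gated cells of isotype week 10, anti-RANKL week 4 and anti-RANKL week 6. *Krt77*, another type II keratin, stood at 799, 279.5, 1486 and 2047 against 28.6, 10.6, 19.3 and 21.5, a log2 difference of 4.98 ± 0.35 (SE, adjusted p = 3.25e-05). Isotype week 2 was highest of the 4 gated libraries for *Krt1* and lowest for *Krt77*.

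Some members of the list encode parts of desmosomes, the junctions that hold epidermal cells together. *Dsp*, which encodes desmoplakin, stood at 943, 899, 1166 and 1016 against 82.0, 49.3, 66.2 and 53.4, a log2 difference of 3.82 ± 0.17 (SE, adjusted p = 5.52e-06), and *Perp*, which encodes a desmosomal membrane protein, at 2267, 1913, 2821 and 2057 against 120.1, 80.4, 137 and 83.5, a log2 difference of 4.32 ± 0.15 (SE, adjusted p = 2.66e-06). The 4 gated libraries lay within a narrow range for both genes. *Jup* (plakoglobin) rose by 3.20 log2 units, *Pkp1* (plakophilin) by 2.13, *Ppl* (periplakin) by 2.21 and *Evpl* (envoplakin) by 1.90. *Dsc2* (0.56) and *Cdsn*, which encodes corneodesmosin (0.57), were not called, and *Krt80*, *Dsg1b* and *Dsc1* fell under the filter. *Ly6d*, a surface marker of stratified epithelia, stood at 4739.6, 4937, 6150.1 and 4743 against 424, 252, 163 and 198, a log2 difference of 4.34 ± 0.25 (SE, adjusted p = 1.37e-05).

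**Figure D3:**
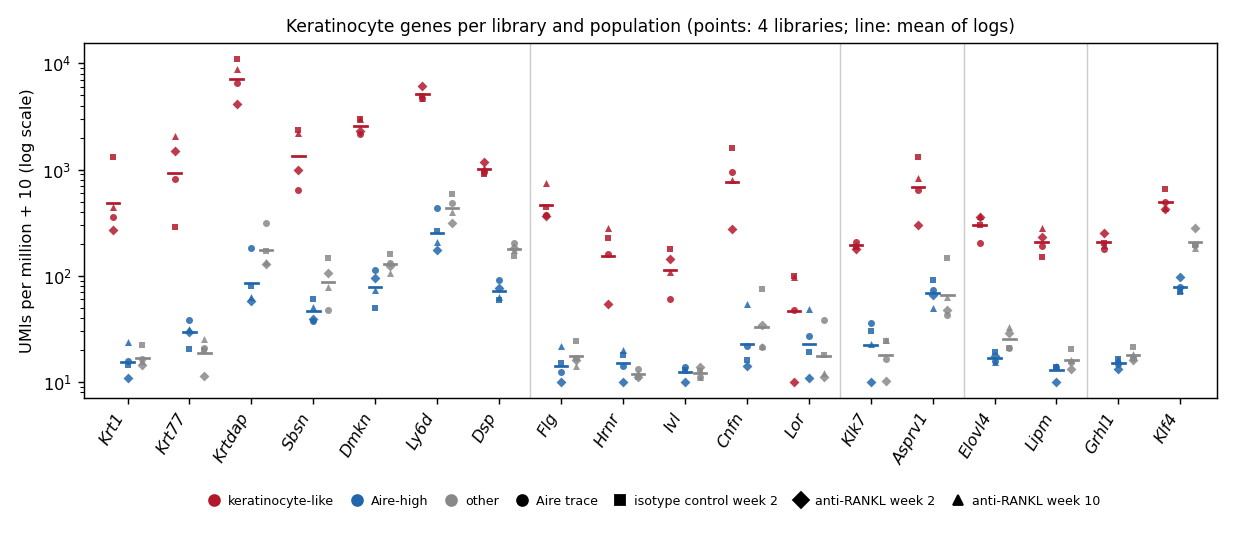
CPM plus 10 (y axis, log scale) of 18 keratinocyte genes in keratinocyte-like (red), *Aire*-high (blue) and other cells (grey) of 4 libraries (symbols), with the mean of the logs as a line; grey lines part spinous, envelope, protease, lipid and transcription factor genes. Red points lie above all blue and grey points for every gene shown except *Lor*, whose groups overlap.

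Cornified envelope genes were mixed. Of 42 members 24 passed the filter against *Aire*-high cells, and 9 were called higher and 4 lower, beside 12.3% and 11.4% of all genes (median 0.98, also with the 3 members at 0 in gated cells put at their bound). Without the Aire trace or without isotype week 2, 2 members in place of 4 were called lower. Against other cells 20 passed, with 12 higher and 1 lower, beside 8.18% and 8.80% of all genes (median 1.46). *Lce3b*, *Sprr2f* and *Lce1m* were tested against *Aire*-high cells alone, so that the counts of the comparisons rest on different members.

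The genes called higher included early and late parts of the envelope. *Flg*, which encodes filaggrin, the protein that bundles keratin filaments, lies on chromosome 3 from 93273523 to 93293686 and stood at 362, 435, 356 and 732 against 2.38, 5.20, 0 and 11.7. Its difference was 5.02 ± 0.19 (SE, adjusted p = 3.52e-06), and it was detected in 38.8% of gated, 2.32% of *Aire*-high and 0.990% of other cells. *Hrnr* (hornerin) rose by 3.35, *Ivl* (involucrin, an early scaffold protein) by 3.20, *Cnfn* (cornifelin) by 5.05, *Scel* (sciellin) by 2.77 and *Sprr1a* (a small proline-rich crosslinking protein) by 2.49 log2 units. Of the crosslinking transglutaminases, *Tgm1* rose by 1.84 and *Tgm3* by 1.20, while *Tgm5* (0.93) was not called. *Casp14*, a protease of filaggrin processing, rose by 1.34 but its groups overlapped, with no UMI in the gated cells of the Aire trace, and it was detected in 10.6% of gated cells.

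Several other genes of the envelope list were rare in gated cells. *Lor*, which encodes loricrin, a major protein of the mature envelope, stood at 37.5, 89.9, 0 and 88.4 in gated and 17.2, 9.26, 0.838 and 38.2 in *Aire*-high cells, was detected in 5 gated cells (5.88%) and was not called (1.02 ± 0.38, SE, adjusted p = 0.0667). The groups overlapped, and anti-RANKL week 2 had no UMI of it. *Lce3b*, of the late cornified envelope family, had no UMI in the gated cells of the 4 libraries and stood at 15.2, 34.5, 46.1 and 15.6 in *Aire*-high cells. *Sprr2f* had none either, against 59.6, 36.6, 0 and 13.9, so that anti-RANKL week 2 had no UMI of it in either population. Both were called lower, and both passed the filter through *Aire*-high cells alone. *Sprr2i* (-2.62) and *Lce1m* were also lower, the latter from 1 gated cell with a UMI. *Sprr2b*, *Sprr2d*, *Sprr2e*, *Sprr2h* and *Lce3c* were not called, and their gated UMIs came largely from isotype week 2, at 63.2 to 619.8 CPM. The Sprr2 and Lce families are near-identical copies between which reads may be split.

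Proteases and inhibitors of skin shedding were higher or not called. Of 26 members 20 were tested, and 9 were called higher and none lower against *Aire*-high cells (median 1.30, all genes 0.01), with the same counts against other cells (median 1.28, all genes -0.10). Of all genes 12.3% and 8.18% were called higher in these comparisons. *Klk7*, a serine protease that cuts the junctions of shedding cells, stood at 199.8, 177, 169 and 187 against 26.2, 20.4, 0 and 12.8, a log2 difference of 3.11 ± 0.29 (SE, adjusted p = 0.000141), and *Klk13* at 74.9, 246, 196 and 128 against 5.72, 10.9, 1.68 and 16.1, a log2 difference of 3.15 ± 0.32 (SE, adjusted p = 0.000223). *Klk8* rose by 2.39, while *Klk5* (-0.58), *Klk6* (0.18) and *Klk14* (-0.55) were not called. The 10 kallikrein genes listed lie together on chromosome 7 from 43690418 to 43851181, and of the 6 tested 3 were called higher. *Asprv1*, an aspartic protease of filaggrin processing, rose by 3.31, and the inhibitors *Cst6* (cystatin) by 2.66, *Serpinb2* by 4.04 and *Serpinb5* by 3.09.

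Most barrier lipid genes tested were higher. Of 22 members 20 were listed and 16 tested, and 13 were called higher, beside 12.3% of all genes, and none lower than in *Aire*-high cells (median 1.75). *Elovl4*, which lengthens the fatty acids of skin ceramides, stood at 194, 289, 347 and 358 against 5.72, 9.16, 7.55 and 5.57, a log2 difference of 4.14 ± 0.22 (SE, adjusted p = 9.23e-06), and *Lipm*, a lipase of the upper epidermis, at 181, 141, 223 and 270.0 against 3.81, 3.97, 0 and 4.08, a log2 difference of 4.02 ± 0.25 (SE, adjusted p = 1.94e-05). The groups did not overlap for either gene. *Sdr9c7* rose by 2.67, *Lipk* by 2.38, *Cers3* (a ceramide synthase) by 2.19, *Abca12* (a lipid transporter of lamellar granules) by 1.92 and *Acer1* (a ceramidase) by 1.75. Many of these levels were low, and with a pseudocount of 50 the count of higher members was 5 in place of 13. Against other cells 15 of 17 tested members were higher, beside 8.18% of all genes (median 1.76).

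Keratinocyte transcription factors were mostly higher. Of 27 members 24 were tested, with 20 called higher, beside 12.3% of all genes, and none lower than in *Aire*-high cells (median 1.80). Against other cells 16 were higher, beside 8.18% of all genes (median 1.19). *Grhl1*, a grainyhead factor of barrier genes, stood at 169, 194, 240.3 and 187 against 4.76, 6.42, 3.35 and 6.49, a log2 difference of 3.76 ± 0.22 (SE, adjusted p = 1.41e-05). *Klf4*, needed for the skin barrier, stood at 487, 647, 418 and 422 against 68.6, 60.1, 86.4 and 63.8, a log2 difference of 2.65 ± 0.20 (SE, adjusted p = 5.56e-05), and *Cebpb* at 662, 661, 765 and 1026 against 118, 57.9, 56.2 and 94.1, a log2 difference of 3.14 ± 0.21 (SE, adjusted p = 2.83e-05). None of the 3 had overlapping groups. *Hes1*, a target of Notch signalling, rose by 3.53, *Cebpa* by 2.62, *Gata3* by 2.56, *Zfp750* by 2.11, *Ovol1* by 1.85 and *Pou3f1* by 2.70. *Trp63*, the p63 factor of basal epithelial cells, was higher than in *Aire*-high cells (2.26 ± 0.20, SE, adjusted p = 0.000108) but not called against other cells (0.27), at 237, 92.4, 107 and 142 against 172, 56.7, 139.8 and 106 there. *Maf* (-0.47), *Grhl2* (0.62) and *Hopx* (0.93) were not called.

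**Figure D4:**
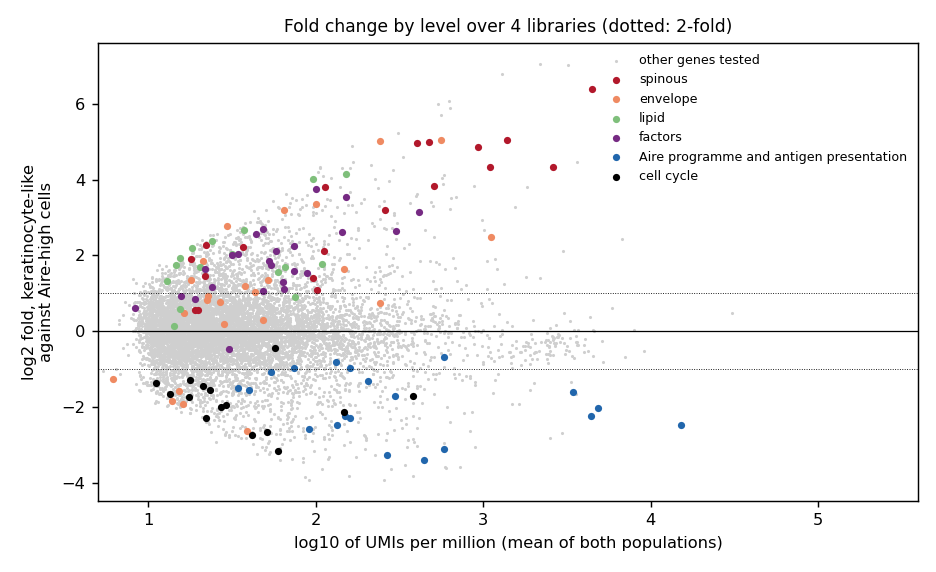
Log2 difference of keratinocyte-like against *Aire*-high cells (y axis, mean of 4 libraries) by log10 of CPM (x axis, mean of both populations) for the genes tested, with members of 6 lists in colour. Spinous, lipid and transcription factor genes lie mostly above the upper 2-fold line, *Aire* programme and cell cycle genes mostly below the lower one, and envelope genes on both sides.

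Keratins outside the spinous layer varied. *Krt17*, a keratin of stratified and appendage epithelia, stood at 12595, 10243, 16118 and 10487 in gated and 3025, 1872, 2625 and 1656 in *Aire*-high cells, a log2 difference of 2.44 ± 0.15 (SE, adjusted p = 1.96e-05). *Krt16* (log2 difference 4.13), *Krt79* (4.25) and *Krt23* (3.45) were also higher. The basal keratins *Krt5* and *Krt14* split. *Krt5* was higher than in *Aire*-high cells (2.66 ± 0.19, SE, adjusted p = 3.32e-05) and not called against other cells (-0.48), whereas *Krt14* was not called against *Aire*-high cells (0.33) and lower than in other cells (-1.43 ± 0.17, SE, adjusted p = 0.000203). The simple-epithelial keratins *Krt8* (-0.64) and *Krt18* (0.03) were not called against *Aire*-high cells. In all, 5 of 16 members tested were higher and 1 lower, beside 12.3% and 11.4% of all genes. Against other cells 4 were higher and 2 lower, beside 8.18% and 8.80%, so that the lower members were near the share of all genes.

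Calcium-binding genes did not move one way, with 4 of 15 tested members higher and 5 lower than in *Aire*-high cells, beside 12.3% and 11.4% of all genes (median -0.42). *Calml3*, a calmodulin-like gene of epithelia, stood at 912, 1339, 1860.2 and 972 against 9.53, 5.48, 6.71 and 12.1, a log2 difference of 6.07 ± 0.25 (SE, adjusted p = 4.65e-06), and the annexin *Anxa8* rose by 4.31. *S100a8* (-2.62), *S100a3* (-2.35), *S100a13* (-1.79) and *S100a16* (-1.41) were lower. The S100 and envelope genes share the epidermal differentiation complex on chromosome 3 from 90514435 to 93564643, where 70 genes were listed and 34 tested, with 7 higher and 8 lower than in *Aire*-high cells, beside 12.3% and 11.4% of all genes. Of 30 tested against other cells 12 were higher and 2 lower, beside 8.18% and 8.80%.

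Among all called genes that were higher in every library, the largest differences from *Aire*-high cells were those of *Lgals7*, an epidermal galectin, and *Dapl1*. *Lgals7* stood at 3591, 6033, 3614 and 1925 against 16.7, 34.4, 3.35 and 20.6, a log2 difference of 7.06 ± 0.29 (SE, adjusted p = 4.65e-06), and *Dapl1* at 5464, 5384, 8019 and 8395 against 57.7, 52.5, 16.8 and 50.8, a log2 difference of 7.03 ± 0.29 (SE, adjusted p = 4.65e-06). *Lgals7* was found in 55.3% of gated cells and *Dapl1* in 87.1%, so that the first came from fewer cells. The rest of the first 10 were *Gm94* (6.79), *Krtdap*, *Calml3*, *Gsta4*, a glutathione transferase (5.98), *Tmem45a* (5.89), *Ly6g6c* (5.70), *Lypd3* (5.24) and *Cnfn*. Against other cells the first 10 were *Gm94* (6.18), *Krt77* (5.63), the beta-defensin *Defb6* (5.47), *Krtdap* (5.37), *Tmem45a*, *Lgals7*, *Ly6g6c*, *Krt1*, *Flg* and *Fam25c* (4.61).

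The *Aire*-stage and antigen presentation genes were lower. Of 22 members 20 were tested, and none was called higher and 16 lower than in *Aire*-high cells, beside 11.4% of all genes called lower, with a median of -1.86. Against other cells 6 were called lower and none higher, beside 8.80% of all genes (median -0.74), and 10 were lower without the Aire trace. *Cd74*, the invariant chain of MHC class II, stood at 3572, 6876, 2020.4 and 8106 in gated, 22106, 24897, 29443 and 23434 in *Aire*-high and 11685, 15919, 11817 and 15593 in other cells, a log2 difference of -2.47 ± 0.33 (SE, adjusted p = 0.000795) against *Aire*-high cells and -1.60 ± 0.21 (SE, adjusted p = 0.000384) against others. Every gated library lay below every library of both other populations. *H2-Aa* fell by 2.23 log2 units, *H2-Ab1* by 2.02, *H2-DMb2* by 3.11 and the costimulatory receptor *Cd40* by 2.47 against *Aire*-high cells.

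Some genes of the *Aire* stage stayed measurable. *Fezf2*, which encodes another factor that drives antigen genes of mTECs, was detected in 82.4% of gated cells, at 375, 489, 365 and 545 against 508, 688, 955 and 741 in *Aire*-high cells, and was not called in either comparison (-0.68 and 0.62). *Tnfrsf11a*, which encodes RANK (-0.97), *Nfkb2* (-0.81) and *H2-DMb1* (-0.97) were not called against *Aire*-high cells either. *Cdx1* (-3.25 ± 0.49, SE, adjusted p = 0.00147) and *Calcb* (-3.40 ± 0.78, SE, adjusted p = 0.0101), both of the *Aire*-stage list, were lower, with *Calcb* at 162, 182, 0 and 78.6 against 446, 763, 1401 and 720.3.

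The libraries differed within this group of genes. Anti-RANKL week 2 had the lowest level of the 4 gated libraries for 18 of the 20 genes (90.0%, against 29.8% of all genes tested) and the highest for none. In the *Aire*-high cells of the same library the level was the highest of 4 for 14 of 20 (70.0%, against 31.5% of all genes) and the lowest for none. Gated cells there numbered 13, with a median of 6940 UMIs, against 10189, 12854 and 7344 in the Aire trace, isotype week 2 and anti-RANKL week 10. This order was noticed after the values had been seen, rests on 1 library and was not tested, and the part of depth in it was not tested.

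**Figure D5:**
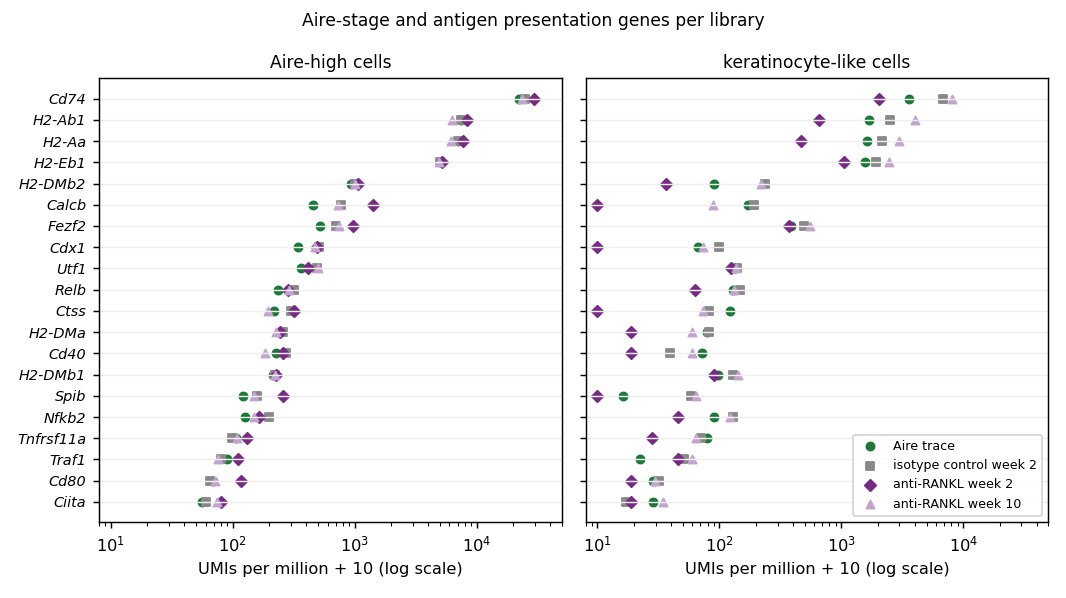
CPM plus 10 (x axis, log scale) of 20 *Aire*-stage and antigen presentation genes (y axis) in *Aire*-high (left) and keratinocyte-like cells (right), with 1 symbol per library. Anti-RANKL week 2 (dark diamonds) is lowest for 18 of 20 genes in keratinocyte-like cells and highest for 14 of 20 in *Aire*-high cells.

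The other genes lower in every library were of several kinds. Against *Aire*-high cells the first 10 were *Mras*, with 3 gated cells with a UMI and no fold given, the mesenchymal filament gene *Vim* (-3.91), *Gm43569*, *H2-Eb2*, the serine synthesis enzyme *Phgdh* (-3.82), *Hdc*, *Gm29461*, *Fgf21* (-3.60), the metallothionein *Mt2* (-3.58) and the casein gene *Csn2* (-3.56). Against other cells they included the smooth muscle genes *Tagln* and *Acta2* (-4.26), then *Igfbp4*, *Mgp*, *Lgals1*, *Ctsl* (-3.55), *Gem*, *Serpinh1* and *Tmsb10*. *Tagln* stood at 0, 4.86, 0 and 4.91 CPM in gated cells against 444, 167, 442 and 247 in others, and was detected in 3 of 85 gated cells.

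Genes of peripheral tissues, chosen for organs other than skin, were mostly lower or not called. Of 28 members 22 were tested against *Aire*-high cells, with 1 higher and 10 lower, beside 12.3% and 11.4% of all genes (median -1.38). Against other cells 20 were tested, with none higher and 7 lower, beside 8.80% of all genes called lower (median -0.57). The share of thinned cells with any gene of the list was nonetheless 58.8% in gated, 82.9% in *Aire*-high and 40.8% in other cells. Summed over the list, gated cells stood at 9048, 4716, 1175 and 1979 CPM. *Aire*-high cells stood at 3871, 4355, 3057 and 2968, and other cells at 2082, 4507, 1575 and 2445. Gated sums were thus above both in the Aire trace and isotype week 2, and below both in the other libraries of the fit. *Csn2*, a milk casein, stood at 474 in the gated cells of isotype week 2 and at 8.90 to 157 in those of the other 3 libraries of the fit, against 1301, 1308, 1109 and 918 in *Aire*-high cells, a log2 difference of -3.56 ± 0.60 (SE, adjusted p = 0.00254). *Bpifa1*, an airway protein, was the gene called higher (2.87 ± 0.58, SE, adjusted p = 0.00598), at 1286, 55.9, 329 and 461 against 25.7, 28.1, 75.5 and 31.5, with groups that overlapped. *Iapp* stood at 2629, 355, 0 and 19.6 and *Reg3g* at 3847, 615, 828 and 24.5 in gated cells, so that the Aire trace was far above the rest of the 4, and neither was called (0.62 and -0.10).

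Among 16 skin cytokine genes listed, 11 were tested against *Aire*-high cells, with 3 higher and 2 lower, beside 12.3% and 11.4% of all genes. Of 10 tested against other cells 5 were higher and 1 lower, beside 8.18% and 8.80%, so that the lower counts were near the shares of all genes. *Il1f6*, which encodes the interleukin 36 alpha of inflamed epidermis, stood at 905, 683, 0 and 270.0 against 2.38, 3.40, 0.838 and 7.05, a log2 difference of 3.96 ± 0.87 (SE, adjusted p = 0.00836), and was detected in 36 of 85 gated cells (42.4%) and 2.43% of *Aire*-high cells. Anti-RANKL week 2 had no UMI of it in 13 gated cells, so that the groups overlapped. *Il1f9* (interleukin 36 gamma) rose by 1.80 and the neutrophil chemokine *Cxcl5* by 1.98. The chemokine *Ccl17* was lower, at 0, 2.43, 8.90 and 4.91 against 82.4, 44.7, 155 and 69.0, and *Ccl22* had no UMI in the gated cells of the 4 libraries against 30.0, 25.9, 15.1 and 35.1 and was called lower.

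Most cell cycle genes tested were lower in summed level. Of 16 members 15 were tested against *Aire*-high cells, and 14 were called lower, beside 11.4% of all genes, and none higher (median -1.74). Against other cells 8 of 12 were lower, beside 8.80% of all genes, and none higher (median -1.21). The share of cells with any gene of the list at 2000 UMIs was nonetheless 51.8% in gated, 52.4% in *Aire*-high and 44.7% in other cells, with at most 2, 9 and 12 genes in a cell. *Hmgb2*, a chromatin protein, was detected in 76.5% of gated and 69.8% of *Aire*-high cells. *Top2a*, which untangles chromosomes in dividing cells, had 0, 2.43, 0 and 0 CPM in gated against 119.6, 73.7, 10.1 and 101 in *Aire*-high cells, was called lower, and was detected in 1 gated cell. *Mki67* and *Ube2c* were likewise called lower, from 1 and 4 gated cells with a UMI, and with so few UMIs no fold is given for these genes. *Pcna*, used in DNA repair as well as replication, was detected in 40.0% of gated cells and was not called (-0.45). Levels of several members were low, and 5 rather than 14 were called with a pseudocount of 50 and 4 with every cell thinned to 2000 UMIs. Against other cells 4 in place of 8 were called without isotype week 2 and 5 without anti-RANKL week 10.

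Markers of other cell types differed by type. At 2000 UMIs, 4.71% of gated cells had a UMI of any of the 12 T cell genes listed, against 15.1% of *Aire*-high, 6.16% of other cells and 89.1% of cells marked as T cells, and *Thy1*, *Cd4*, *Cd2* and *Rag1* had no UMI in gated cells. Of 7 stromal genes none passed the filter. A microfold gene was present in 29.4% of gated cells against 17.2% of *Aire*-high and 11.3% of other cells, and a tuft gene in 23.5% against 16.8% and 21.4%. Of the tuft genes 1 of 6 tested was higher than in *Aire*-high cells, beside 12.3% of all genes. Summed over the tuft list, gated cells stood at 87.4, 99.7, 187 and 673 CPM, highest in anti-RANKL week 10. A gated cell there held 8 tuft genes at all UMIs, and another, with a *Krt10* value of 2.01 and 2 markers, held 9. Against other cells, where 8.80% of all genes were called lower, 7 of 9 tuft genes tested were lower and none higher, of the cortical epithelial genes 5 of 7 were lower, and of the neuroendocrine genes 2 of 2. Other cells include single cells with up to 10 tuft, 8 cortical epithelial and 6 neuroendocrine genes at 2000 UMIs. Lower sums against such a mixture do not show that gated cells are low in these genes. Of 4 microfold genes tested, *Gp2* and *Tnfaip2* were higher than in *Aire*-high cells (2.36 and 1.40), beside 12.3% of all genes. Against other cells 1 of 4 tested was higher and 1 lower, beside 8.18% and 8.80% of all genes (median 0.83). *Gp2*, whose groups overlapped, was detected in 5 gated cells. A B cell or myeloid gene was present in 18.8% of gated, 42.9% of *Aire*-high and 11.4% of other cells. Of these genes 3 of 4 tested were lower than in *Aire*-high cells, beside 11.4% of all genes, and 1 of 2 lower than in other cells, with *Lyz2* among them (against *Aire*-high cells -2.92, groups overlapping). *Epcam*, a surface protein of epithelia (0.43), and *Foxn1*, a transcription factor of thymic epithelium (-0.70), were not called against *Aire*-high cells.

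Stress and immediate early genes, which tissue digestion can also raise, were higher than in *Aire*-high cells for 9 of 14 members and lower for 1, beside 12.3% and 11.4% of all genes (median 1.12), and with median-ratio scaling 5 were higher. Against other cells 2 were higher and 2 lower, near the 8.18% and 8.80% of all genes (median 0.17). *Hspb1*, a small heat shock protein that is also high in differentiating epidermis, stood at 3116, 4261, 3800.4 and 2013 against 299, 156, 259.9 and 184, a log2 difference of 3.81 ± 0.23 (SE, adjusted p = 1.75e-05), and was also higher than in other cells (2.13). *Fos* (1.10), *Jun* (1.15) and *Egr1* (1.34) were higher than in *Aire*-high cells and not called against other cells. Their part in the differences of the keratinocyte genes was not tested.

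At equal depth gated cells held slightly more genes than *Aire*-high cells in each of 4 libraries, while the difference from other cells was not as steady. The median number of genes per cell at 2000 UMIs was 1038, 1010, 1018 and 1031 in the 4 libraries, against 959.5, 972, 964.5 and 942 in *Aire*-high cells and 977, 999.5, 1008 and 996 in other cells. The difference was 64.8 ± 23.2 genes from *Aire*-high (SD, n = 4) and 29.1 ± 24.2 from other cells (SD, n = 4), each with p = 0.125 in an exact sign-flip permutation test, the smallest that 4 libraries allow. At 4000 UMIs, which leaves out shallower cells, the difference from *Aire*-high cells was 81.4 ± 49.3, again higher in 4 of 4 libraries. That from other cells was 12.8 ± 54.5 (exact permutation p = 0.75), at 80.5, -24, -38 and 32.5 in the 4 libraries, and at 2000 UMIs with no *Aire* UMI in gated cells it was 13.2 ± 26.1 (exact permutation p = 0.5), lower in 2 of 4. Without thinning, gated cells held fewer genes than *Aire*-high cells by a mean of -892 per cell, at medians of 9350 and 12910 UMIs.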

How the data were processed

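Each of the 7 libraries was analysed from its table of cells by genes. Per the labels and the study's methods, the authors aligned reads and counted UMIs with Cell Ranger 2.2.0 (mm10, with the ZsGreen sequence added for the Aire trace), filtered cells on genes and mitochondrial reads and normalized with Seurat 2.3.4. The deposited values are on a natural log scale, ln(1 + UMIs per 10000). Whole UMIs were recovered from them in every cell (tolerance 0.001). In the deposited values the scaling was 10000 per cell. Tables that combine samples (10760 cell columns) were not used. No doublet step is named in the methods, and no caller was run.

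The members and gene lists were chosen with earlier results of these data known. Cells of each population were summed per library where at least 10 were present in both, scaled to 1000000 (CPM), filtered at a mean of 10 CPM, and log2(level + 10) was fitted with limma 3.58.1 (R 4.3.3) with the library as a block, a trend and Benjamini-Hochberg adjustment. The pooled thymi of a library give no estimate of spread between mice. Libraries held 3857876 to 22197691 UMIs. Shares are given with 95% exact binomial intervals, whose width is set by the number of cells. Shares and genes per cell were compared by two-sided exact permutation tests. Cells were thinned to 2000 UMIs without replacement. Cells marked as T cells had a *Ptprc* UMI and at least 3 genes of the T cell list. Genes named were those of the gate, members of the lists, ZsGreen and, in each comparison, the 10 called genes with the largest difference in each direction among those that moved one way in every library. One of these genes is not reported here. Coordinates are from GENCODE vM21 and promoters from RefSeq. Other steps ran in Python 3.11.15 with matplotlib 3.10.9, pandas 2.3.3, scipy 1.17.1 and numpy 2.4.6. Alternatives were other pseudocounts, filters, scalings, gates and minimum cell numbers, thinning, the mean of deposited values, no block, and leaving out each library.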

Additional observations from a re-analysis of the deposited data

Results flagged for a closer look

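For 2 of the 41 values examined over 4 libraries, 1 library stood far from the other 3, where chance alone gives such a gap in about 1 in 20 values. The log2 difference of *Acta2* between keratinocyte-like and other cells was -2.29 in isotype week 2, where gated cells had 34.0 CPM, and as low as -4.95 in the other libraries. For *Ctsl* it was -2.95 in the same library and as low as -3.77 in the others. Both genes were lower in gated cells in 4 of 4 libraries.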

How the results depend on the processing

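Against *Aire*-high cells, 2041 genes were called, 1060 of them higher and 981 lower. A pseudocount of 50 gave 684 (383 higher, 301 lower), a filter at 50 CPM 796 (432 and 364), the mean of the natural log values 234 (126 and 108) and thinning to 2000 UMIs 1212 (498 and 714). Against other cells, 1480 genes were called (713 and 767). Under the same settings the counts were 426 (257 and 169), 607 (346 and 261), 151 (103 and 48) and 955 (340 and 615), and with at least 20 cells per library 488 genes were lower. The higher genes were 41.1% of called genes after thinning against *Aire*-high cells, and 35.6% after thinning, 60.3% with a pseudocount of 50 and 68.2% with the mean of log values against other cells (48.2% as reported). Leaving out each library in turn gave 969 to 1050 higher and 889 to 914 lower genes against *Aire*-high cells, and 650 to 726 and 637 to 754 against other cells, with the same gated cells in both. The library numbers pair the populations because both come from the same pool. The fit without the replicate block called 2002 genes (1038 and 964) and 1333 (668 and 665), and changed no count of all genes by over 1.5 times. Over all these settings 718 values of named genes kept their direction and call, none reversed, and 2 lost the call (*Acta2* and *Lgals1* against other cells, with the mean of log values). Of the counts of list members 499 stayed within 1.5 times and 77 did not.

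With only cells at *Ccl21a* of 4 or less as the denominator, the share of gated cells was 2.93% in the Aire trace, 2.58% in isotype week 2 and 2.60%, 0.394%, 0.260% and 2.70% in anti-RANKL weeks 2, 4, 6 and 10, and the difference of anti-RANKL from isotype libraries was -0.0902 percentage points in place of -0.471 (exact permutation p = 0.733). The share was 0% in anti-RANKL week 6 with a *Krt10* cutoff of 2 and with at least 2 markers, and 0.0689% in anti-RANKL week 4 with either. Isotype week 10 stood at 0.241% with the cutoff of 2 and at 0.401% with at least 2 markers. With at least 2 markers 100% of gated cells of the Aire trace had ZsGreen. Without thinning, the difference in genes per cell turned to -892 from *Aire*-high and -208 from other cells. From other cells it was 12.8 at 4000 UMIs, 13.2 with no *Aire* UMI in gated cells and 20.0 with a *Krt10* cutoff of 2, where it was higher in 3 of 4 libraries. Leaving out a library gave 56.7 to 73.7 and 18.5 to 35.5 genes. The 2 to 25 gated cells of a library, and 1 in anti-RANKL week 6, limit every value here, and a gene with no UMI in them may still be expressed.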

Other observations

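The 64 cells that met every condition of the gate except the 3 markers were looked at after the other values had been seen. They had a median of 4200 UMIs, against 9350 in gated cells. At 2000 UMIs, 6 of 62 held at least 4 spinous-layer genes (9.68%, 95% exact binomial interval 3.63 to 19.9%), with a median of 2. *Krt1* was detected in 7.81% of them and 48.2% of gated cells, *Flg* in 1.56% and 38.8%, *Krtdap* in 4.69% and 76.5%, and *Krt5* in 50% and 61.2%. The part of depth in these shares was not tested.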
